A study of Rattus norvegicus with 32 samples.

Results

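Meis2, Rarb, Foxp1, Foxp2, Isl1, Bcl11b, Ebf1, Six3, Zfp503 and Dach1 encode transcription factors that are known from the projection neurons of the striatum, and they are described here in RNA-seq libraries of 4 brain regions of rats given methamphetamine (METH) or saline (Sal). The members were found by their gene names in the count file of each sample, and all 10 are among the 28914 genes counted there. The rats were adult males of the Sprague-Dawley strain, weighing 250 to 300 g on arrival. METH rats received 4 intraperitoneal injections of 10 mg/kg, 2 h apart, saline rats received saline on the same schedule, and the brains were removed 24 h after the final dose. The regions were the nucleus accumbens (NAc, the ventral striatum), the subventricular zone (SVZ, the neurogenic wall of the lateral ventricle beside the striatum), the dentate gyrus (DG) and the CA fields of the hippocampus (CA). There were 4 METH and 4 saline samples of each region and 32 samples together, which are called by region, treatment and replicate below. NAc and SVZ tissue was punched from slices and DG and CA tissue was scooped out, so every library holds many cell types.

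The striatum is built mainly of GABAergic projection neurons, the medium spiny neurons, which arise in the ganglionic eminence of the embryo. They fall into a class with dopamine D1 receptors, which makes substance P and dynorphin, and a class with D2 receptors, which makes enkephalin. Their identity is set up and kept by combinations of factors, some of which act in all of these neurons and others in 1 class. The hippocampus, in contrast, is made largely of glutamatergic neurons of pallial origin, and some of the same factors are used there too. In tissue of this kind, fewer cells of a type and less RNA per cell cannot be told apart.

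The total count per library lay between 11094002 and 21869773, and 1 read was worth 0.0443 to 0.0934 CPM (counts scaled to the upper-quartile library size). Levels are given in CPM, and per kb of exon length where genes are compared with each other. Of the 32 libraries, 5 were taken to stand apart from their group on neuronal genes other than the members, and this was noticed after their values were seen. DG Sal 3 had 0 CPM of Neurod2, a factor of pallial neurons, where the other 3 DG Sal libraries had 44.8, 70.6 and 84.4 CPM, and its summed level of 16 striatal effector genes (receptors, peptides and signalling proteins of medium spiny neurons) was 4116 CPM against 600, 795 and 879 CPM. NAc METH 3 had 771 CPM of the effector genes, where the other 3 NAc METH libraries had 6341 to 7456 CPM. SVZ Sal 1, SVZ METH 2 and SVZ METH 4 had 1963, 1744 and 1185 CPM summed over 7 markers of thalamic and septal neurons, where the other 5 SVZ libraries had 120 to 587 CPM. Results that rest on these 5 libraries are given with and without them. Other libraries with outlying markers were kept, among them SVZ METH 3 and DG METH 3, with 7975 and 6040 CPM summed over choroid plexus markers.

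In the file headers each library name holds a number and a tag, and the tag was read here as its run. The headers do not say that it is a sequencing run, and the paper states 2 batches for the RNA-seq. DG Sal 1 and 2 carry the numbers that METH replicates 1 and 2 have in NAc and CA tissue, whereas DG METH 1 and 2 carry those of Sal 1 and 2. The 4 SVZ METH libraries carry 2 numbers, each on 2 libraries. The SVZ libraries have a run tag of their own, so region and run cannot be told apart for the SVZ. Samples were grouped by their labels throughout. No 2 libraries of a group agreed within sampling noise (chi-square of at least 16.42 per gene), and each was counted as 1 replicate. It was not stated that each came from a separate animal, so the p-values measure the spread between these samples.

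On the rn6 assembly the members lie on chromosomes 2 (Isl1, chr2:48487736-48501436), 3 (Meis2, chr3:107559997-107760589), 4 (Foxp2, chr4:41364441-41942023, and Foxp1, chr4:131366744-131694755), 6 (Six3, chr6:8886591-8889925, and Bcl11b, chr6:131834097-131926272), 10 (Ebf1, chr10:23661013-24050209) and 15 (Zfp503, chr15:2374582-2378370, Rarb, chr15:10120206-10262599, and Dach1, chr15:82099159-82482009). Counting was over exons and took no account of strand. No gene of the annotation overlapped a member on the other strand. Foxp2 overlapped 2 short genes on its own strand, each with a median count of 0.

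In saline NAc the mean level per kb was highest for Meis2 (89.8 CPM per kb ± 34.3, SD, n = 4), Foxp1 (82.4 ± 60.0) and Bcl11b (68.9 ± 38.7). Below these stood Dach1 (27.2 ± 27.4), Rarb (23.6 ± 13) and Foxp2 (15.7 ± 4.48). The lowest were Six3 (10.4 ± 3.50), Zfp503 (7.79 ± 1.15), Isl1 (6.24 ± 0.967) and Ebf1 (4.88 ± 2.98). Each pair of neighbours in this order overlapped within 1 SD of their means. The highest saline NAc library was 1.39 times the lowest for Isl1 and 1.44 times for Zfp503, but 6.58 times for Ebf1 and 12.2 times for Dach1.

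**Figure D1:**
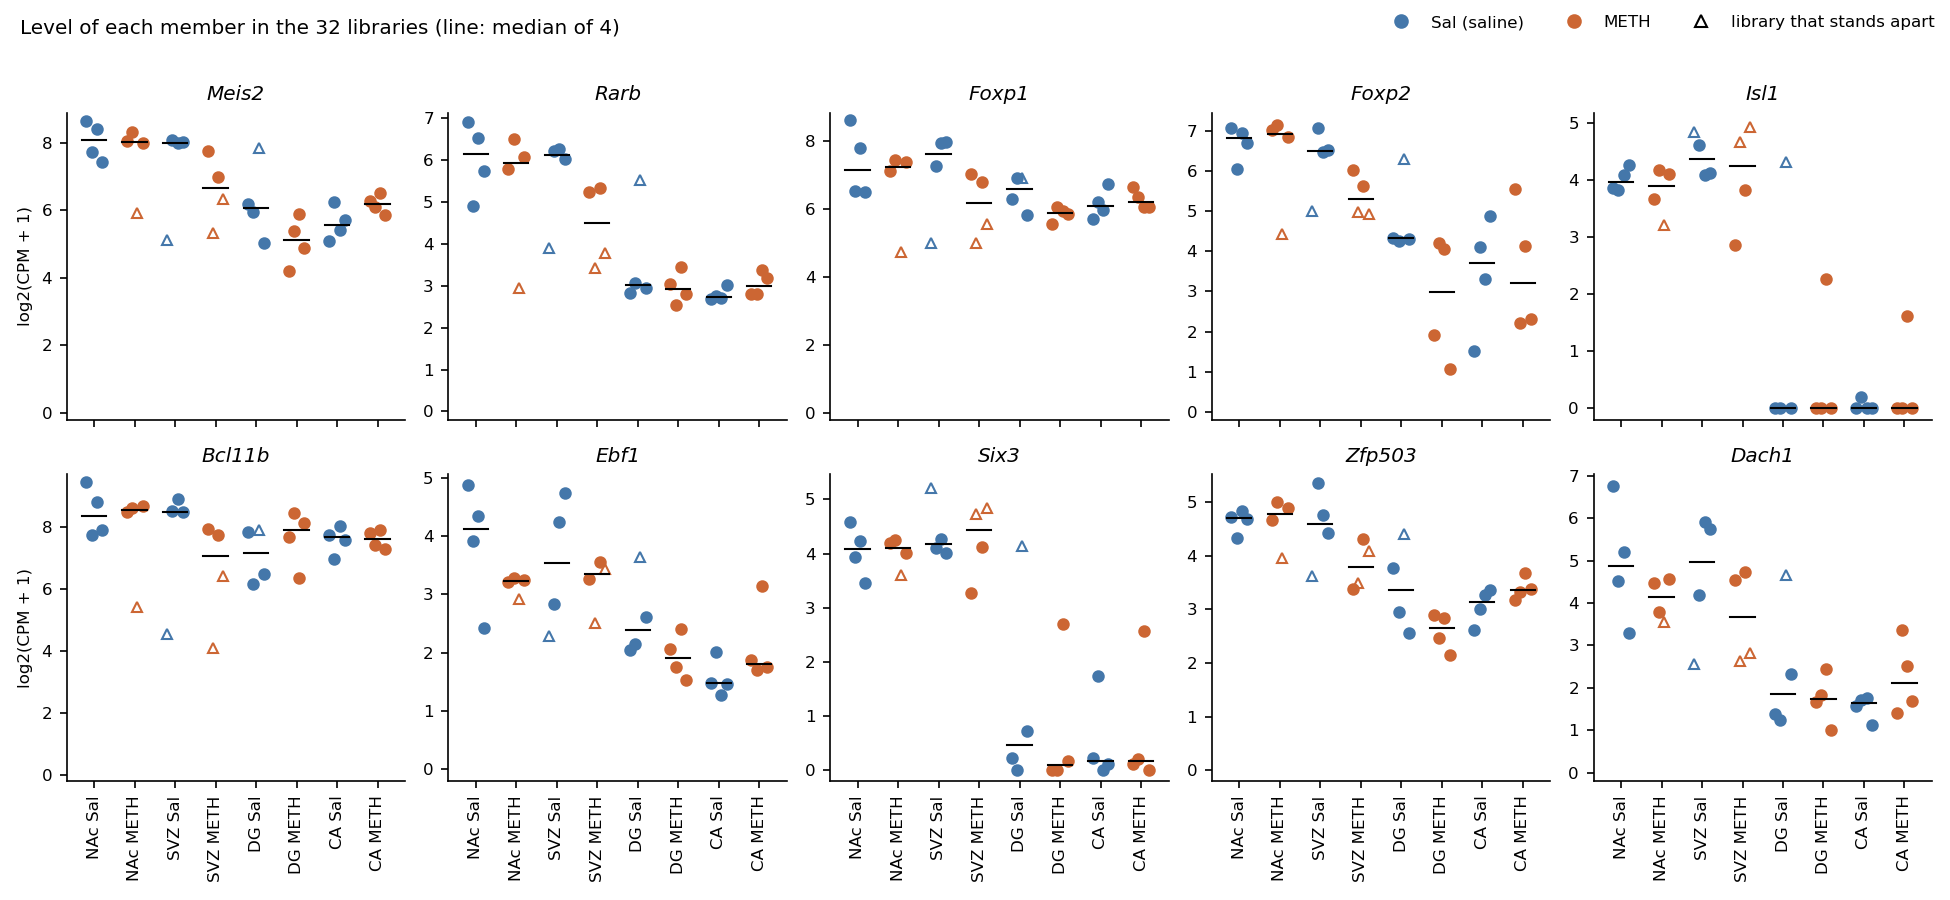
Level of each member as log2(CPM + 1) in every library (points) with the median of the 4 libraries of a group (line) and the 5 libraries that stand apart as open triangles. Isl1 and Six3 lie near 0 in most hippocampal libraries, while Bcl11b and Foxp1 are high in all 4 regions.

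Bcl11b (also called Ctip2) is a zinc finger factor needed for medium spiny neurons to mature, and it is also used by deep-layer cortical neurons and by hippocampal neurons. In NAc Sal it was at 695, 212, 452 and 239 CPM, and in NAc METH at 356, 393, 41.8 and 410 CPM. In CA Sal it was at 212, 123, 263 and 192 CPM. The ranges of NAc and CA overlapped, and the log2 difference of the saline groups, 1.04 (SE 0.66), did not pass the test (edgeR's quasi-likelihood test, FDR 0.361). In the DG the libraries ran from 70.7 CPM (DG Sal 2) to 346 CPM (DG METH 2). In the SVZ the 3 libraries with high thalamic and septal markers were the lowest of all 32 but for NAc METH 3 and 2 DG libraries, with 22.2 (Sal 1), 16.2 (METH 2) and 84.2 CPM (METH 4).

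Foxp1 is a forkhead repressor made by medium spiny neurons, and it is also made in cortex and CA1. In NAc Sal it was at 397, 91.4, 220 and 89.4 CPM, and in SVZ Sal at 30.8, 154, 247 and 249 CPM. In CA Sal it was at 51.5, 72.9, 61.4 and 105 CPM. CA Sal 4 was therefore above NAc Sal 2 and 4, and the saline groups overlapped. The log2 difference of NAc and CA was 1.47 (SE 0.57, FDR 0.132).

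Meis2, a homeodomain factor that binds DNA together with Pbx proteins, marks the lateral ganglionic eminence and its progeny. It was at 401, 212, 334 and 171 CPM in NAc Sal and at 33.0, 75.2, 41.9 and 51.0 CPM in CA Sal. These ranges did not overlap. In SVZ Sal it was at 33.8, 267, 253 and 256 CPM, so that replicate 1 stood at the hippocampal level. In DG Sal, replicate 3 (228 CPM) stood within the ranges of NAc Sal and SVZ Sal, above the 31.9 to 71.7 CPM of the others.

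Rarb encodes retinoic acid receptor beta, which binds DNA as a partner of a retinoid X receptor and switches genes on when retinoic acid is bound. It takes part in the development of striatal projection neurons, and its own gene is a textbook target of retinoic acid. The start of the gene is shown with that response element, because Rarb had the lowest FDR of the members in saline NAc against CA (0.0298). The 300 bases at the start site (RefSeq, GRCr8, chr15:11336142-11336441, + strand, 250 bases before the start and 50 after) hold the direct repeat of the half-site, in capitals, at bases 276 to 291.
Rarb promoter: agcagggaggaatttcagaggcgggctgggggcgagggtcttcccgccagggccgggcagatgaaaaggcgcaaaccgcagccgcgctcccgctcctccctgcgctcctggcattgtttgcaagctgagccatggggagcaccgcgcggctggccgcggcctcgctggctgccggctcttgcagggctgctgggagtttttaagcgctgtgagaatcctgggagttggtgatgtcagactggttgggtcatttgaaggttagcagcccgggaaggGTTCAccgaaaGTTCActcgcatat
The letters searched, GTTCA repeated in the same direction after a gap of 6 bases, on either strand, occur in 0.418% of 33469 promoters of the same length, and in 1 of the 6 member promoters in that table (those of Rarb, Foxp1, Isl1, Ebf1, Six3 and Zfp503). The Meis letters TGACAG occur in 19.0% of promoters and, among the 6, in that of Six3. The forkhead letters TGTTTAC occur in 3.78% and in that of Foxp1. The Isl letters CTAATG occur in 8.68% and in that of Six3, and the Ebf letters TCCC and GGGA, 2 bases apart, in 0.834% and in none of the 6. A match is a description of these letters and not a site of binding.

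Rarb was at 119, 28.9, 91.6 and 52.3 CPM in NAc Sal and at 14, 73.3, 75.4 and 64.5 CPM in SVZ Sal. In CA Sal it was at 5.39, 5.77, 5.49 and 7.15 CPM. The hippocampal libraries were tight, from 4.84 to 10.0 CPM in 15 of 16, and the exception was DG Sal 3 at 44.8 CPM. In NAc METH, replicate 3 stood at the hippocampal level, with 6.74 CPM against 54.7, 89.2 and 66.1 CPM in the others. Between saline NAc and CA the log2 difference was 3.64 (SE 0.72, FDR 0.0298).

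Foxp2, the forkhead partner of Foxp1 known from speech and motor learning, was at 64.8 to 134 CPM in NAc Sal and at 31.0 to 133 CPM in SVZ Sal. In the hippocampus it ran from 1.08 CPM (DG METH 4) to 77.4 CPM (DG Sal 3). Within CA METH alone it was at 45.9, 3.60, 16.5 and 3.97 CPM. In DG Sal it was at 19.2, 18.0, 77.4 and 18.7 CPM and in DG METH at 2.79, 17.3, 15.7 and 1.08 CPM. The highest METH library was just below the lowest saline one at this scaling. At the scaling of the METH test in the DG the groups overlapped, with a log2 fold change of -1.84 (SE 0.88, FDR 0.434).

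Ebf1 directs the maturation of D1 neurons of the direct pathway. In NAc Sal it was at 28.5, 14.1, 19.3 and 4.34 CPM, and in NAc METH at 8.31, 8.77, 6.60 and 8.48 CPM. The METH libraries lay within a narrow span inside the wide span of the saline ones. In CA Sal Ebf1 was at 1.42 to 3.04 CPM.

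Zfp503 (also called Nolz1) is a zinc finger repressor of the developing striatum, and Dach1 is a transcriptional corepressor of the Ski family. Zfp503 was at 25.3, 19.2, 27.6 and 24.7 CPM in NAc Sal and at 5.10, 7.02, 8.70 and 9.25 CPM in CA Sal, and its 4 NAc libraries lay closer together than those of any member but Isl1. Dach1 was at 107, 22.0, 36.0 and 8.75 CPM in NAc Sal, a 12.2-fold range, and at 1.18 to 2.41 CPM in CA Sal. Neither gene's NAc and CA ranges overlapped.

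Isl1, a LIM homeodomain factor of D1 neurons and of cholinergic neurons, was close to absent from hippocampal libraries. It was at 13.6, 13.2, 16 and 18.4 CPM in NAc Sal and at 27.8, 23.7, 16 and 16.6 CPM in SVZ Sal. In CA Sal it had 0, 2, 0 and 0 reads, and in DG Sal 0, 0, 303 and 0 reads. Against these 2 reads, saline NAc was 444-fold higher per library size (exact 95% interval 122 to 3669, counting error only). Without DG Sal 3 the DG had 0 reads, and saline NAc was at least 182-fold higher than the level of 3 reads over the 3 other libraries. DG METH 3 (83 reads, 3.82 CPM) and CA METH 3 (32 reads, 2.08 CPM) were the other hippocampal libraries with more than 3 reads.

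Six3, a homeobox factor of the early forebrain that later marks D2 neurons, followed Isl1. It was at 22.8, 14.3, 17.9 and 9.98 CPM in NAc Sal and at 35.9, 16.2, 18.2 and 15.1 CPM in SVZ Sal. The hippocampal libraries with more than 3 reads in CA were Sal 2 (2.34 CPM) and METH 3 (4.94 CPM), and in DG Sal 3 (16.7 CPM), METH 3 (5.52 CPM) and Sal 4 (0.644 CPM). In SVZ Sal 1, METH 2 and METH 4, Isl1 and Six3 had their 3 highest values of the 8 SVZ libraries, while Bcl11b, Foxp1, Meis2, Rarb, Foxp2 and Dach1 had their 3 lowest. SVZ Sal 1 had 27.8 CPM of Isl1 and 35.9 CPM of Six3 beside 22.2 CPM of Bcl11b, and SVZ METH 4 had 29.6 and 27.6 CPM beside 84.2 CPM.

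The markers of cholinergic neurons, which also make Isl1, were summed beside these values. The 6 genes (among them Chat, the acetylcholine-making enzyme) came to 108 to 225 CPM in NAc Sal and to 67.2 to 121 CPM in NAc METH. In SVZ Sal 1, which had the second highest Isl1 of all libraries, they came to 9.23 CPM, with Chat at 0.659 CPM. In SVZ METH 2 and 4 they came to 81.7 and 101 CPM, with Chat at 13.9 and 17.9 CPM. In the hippocampal libraries other than DG Sal 3 they came to 2.57 to 14.7 CPM. Their part in the Isl1 level was not tested.

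The comparison of regions asked whether the members separate striatal from hippocampal tissue in rats that had no METH. All 10 were higher in saline NAc than in saline CA, with log2 differences from 1.04 (Bcl11b) to 8.51 (Isl1), a median of 3.02 beside 0.057 over all genes. No member was called (an FDR under 0.01 with a fold change over 2), beside 0% of the 15515 genes tested. At an unadjusted p under 0.05, 9 members were higher, beside 13.6% of all genes, and DESeq2 called 7, beside 3.43%. At an FDR under 0.05, 7 members passed (Rarb, Ebf1, Isl1, Foxp2, Dach1, Zfp503 and Meis2, FDR 0.0298 to 0.0414), beside 5.1% of all genes in either direction. For 8 members, all but Bcl11b and Foxp1, the 4 NAc libraries lay above the 4 CA libraries, beside 12.4% of all genes.

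Saline SVZ stood in the same relation to CA. The log2 differences ran from 0.67 (Bcl11b) to 8.97 (Isl1, against 2 reads), with a median of 2.74, and 0 members were called beside 0.812% of all genes by edgeR. At an unadjusted p under 0.05, 9 were higher, beside 19.3%, and DESeq2 called 8, beside 4.97%. At an FDR under 0.05, 8 members passed, all but Bcl11b and Foxp1, beside 13.2% of all genes. Ranges did not overlap for 7 members, beside 11.5% of all genes. Meis2 (log2 difference 2.06, SE 0.63, FDR 0.0457) passed although SVZ Sal 1 reached down to the CA level.

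Between saline NAc and SVZ no difference of a member was larger than the spread. The log2 differences, NAc minus SVZ, lay between -0.46 (Isl1, SE 1.08) and 0.44 (Meis2, SE 0.61), all with an FDR of 0.817 or more. No member was called, beside 0% of all genes, and 0 members had an unadjusted p under 0.05 (beside 4.16% of all genes higher and 8.46% lower), with 0 called by DESeq2.

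Against the DG, with all libraries, the NAc was higher by log2 differences of 1.10 (Foxp1) to 2.41 (Dach1), 0 members were called (beside 0% of all genes, by DESeq2 also 0) and 6 had an unadjusted p under 0.05, beside 5.22% of all genes. Without DG Sal 3 alone, 1 member (Isl1) was called, beside 0.229% of all genes, and 9 had an unadjusted p under 0.05, beside 10.7%. Without the 5 libraries (here DG Sal 3 and SVZ Sal 1), 4 members were called, Isl1, Rarb (log2 difference 3.45, SE 0.39, FDR 0.000564), Meis2 (2.38, SE 0.35, FDR 0.00263) and Six3 (5.84, SE 1.04, FDR 0.00650), beside 1.28% of all genes. The same exclusion raised the calls to 8 of 10 in NAc against CA, beside 3.01%, to 6 in SVZ against DG, beside 2.5%, and to 8 in SVZ against CA, beside 4.54%. With all libraries, SVZ against DG had 0 calls (beside 0.0193% of all genes, by DESeq2 also 0) and 3 members higher at an unadjusted p under 0.05, beside 9.71%. Without DG Sal 3 alone these counts were 1, beside 0.445%, and 8, beside 13.6%. The exclusion was chosen after the values were seen. DG Sal 3 was set apart partly by its high effector sum, which over the 32 libraries had an r of 0.98 with Rarb and 0.93 with Meis2. More calls without it were therefore likely from the start and are no independent support.

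**Figure D2:**
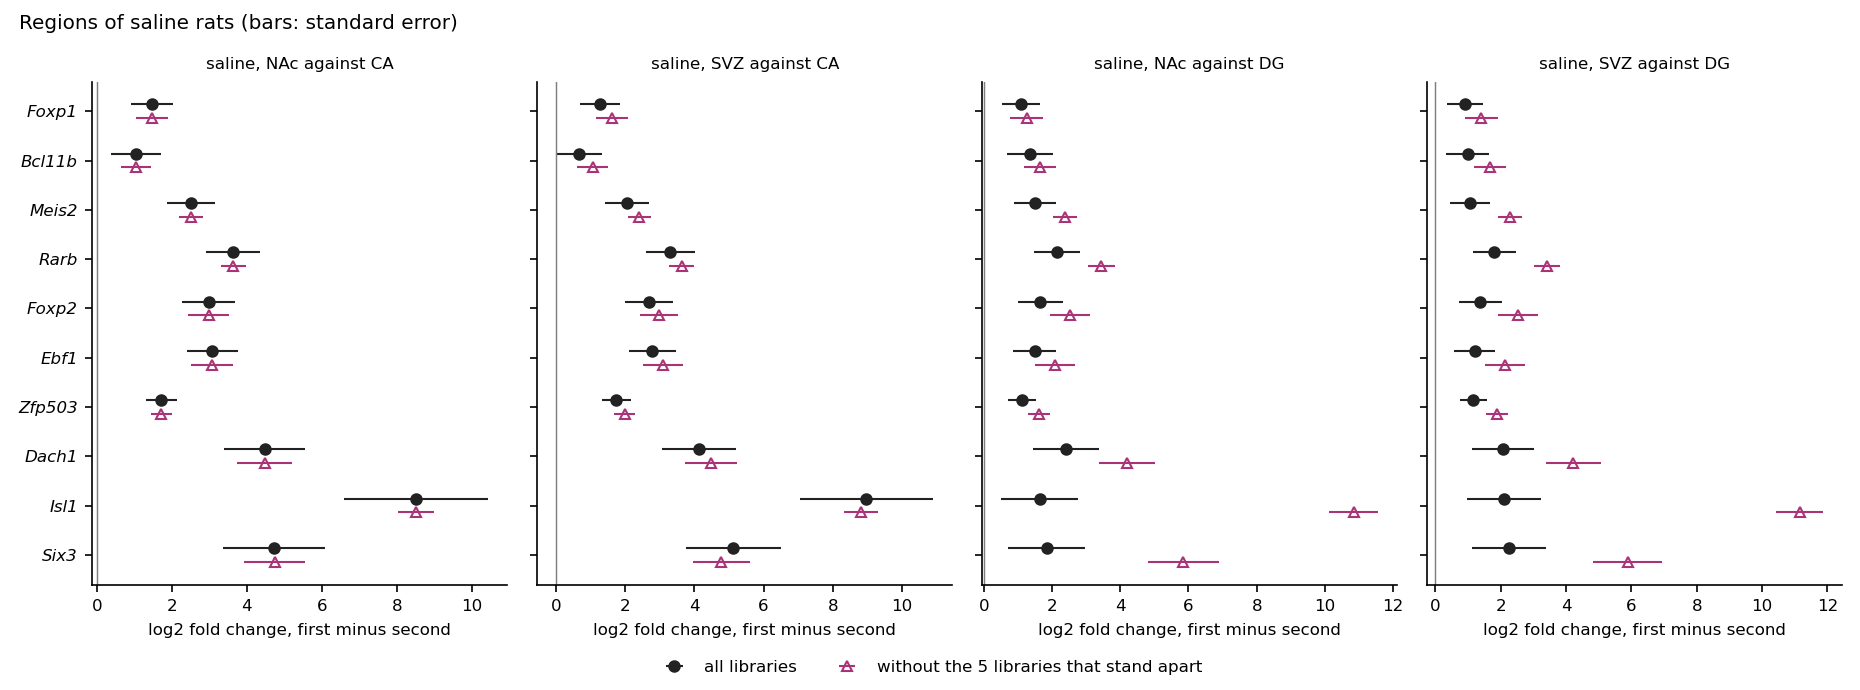
Log2 fold change (first region minus second, points, with standard error bars) of each member between regions of saline rats, with all libraries (circles) and without the 5 that stand apart (triangles). Bcl11b and Foxp1 have the smallest differences to CA, and the values of Isl1 rest on 0 to 2 hippocampal reads and depend on the prior count of the fit once DG Sal 3 is left out.

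Within the hippocampus, no member was called between saline DG and CA (beside 0% of all genes, and 0 members by DESeq2). The dentate granule markers overlapped between these labels, at 86.9 to 320 CPM in DG Sal and 129 to 603 CPM in CA Sal. All 5 tested were lower in the DG (median log2 difference -0.84, 0 at an FDR under 0.05). How far the 2 labels part granule from pyramidal tissue was not tested. At an unadjusted p under 0.05, 4 members were higher in the DG, beside 5.32% of all genes, and 0 without DG Sal 3. The ranges did not overlap for Ebf1 alone, which was higher in the DG, as were 333 of 15515 genes. The log2 difference of Isl1, 6.87 with DG Sal 3, was -2.33 without it and rested on no more than 2 reads. When each region was set against the other 3 together, all 10 members were lower in CA, 9 of them at an unadjusted p under 0.05 beside 14.2% of all genes, and 0 were called beside 0% (7 by DESeq2, beside 1.72%). In the NAc 0 were called beside 0%, with Meis2 (log2 difference 1.25, SE 0.58, FDR 0.461) the 1 member higher at an unadjusted p under 0.05 beside 4.81%. In the SVZ (0 called beside 0.0387%) no member reached an unadjusted p under 0.05, beside 12.9% of all genes higher and 8.87% lower. The same held for the DG (0 called beside 0%), beside 2.78% higher and 1.34% lower, and DESeq2 called 0 in the NAc, SVZ and DG. Without the 5 libraries 0 were called in any of the 4, but in the DG 7 members were lower at an unadjusted p under 0.05, beside 6.65%, among them Rarb (-2.85, SE 1.07, FDR 0.317) and Meis2 (-1.84, SE 0.74, FDR 0.341). In the NAc Meis2 remained the 1 member higher, beside 7.43%, and in the SVZ Zfp503 became 1, beside 12.4%.

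In the METH rats Zfp503 gave the firmest regional difference. It was at 24.6, 31.0, 14.5 and 28.8 CPM in NAc METH and at 6.45, 4.55, 6.16 and 3.42 CPM in DG METH, with no overlap. The NAc libraries lay above the DG libraries in this way for 7 members, beside 1578 of 15615 genes. The log2 difference of Zfp503 was 2.27 (SE 0.29, FDR 0.00033). Rarb (2.95, SE 0.62, FDR 0.00688) and Meis2 (2.62, SE 0.55, FDR 0.00642) were also called in NAc against DG, so that 3 of 10 members passed, beside 3.1% of all genes. Zfp503 alone was called in NAc against CA (log2 difference 1.40, SE 0.28, FDR 0.00884), beside 1.27%, and in SVZ against DG (1.43, SE 0.28, FDR 0.00362), beside 3.94%. In SVZ against CA 0 members were called beside 3.91%, with 5 higher at an unadjusted p under 0.05, beside 23.5%, and 0 by DESeq2. NAc against SVZ (beside 0.0384%) and DG against CA (beside 0%) had 0 calls by edgeR and by DESeq2. Zfp503 was the 1 member at an unadjusted p under 0.05 in each, on the higher side in the NAc beside 12.3% of all genes and on the lower side in the DG beside 5.48%. In NAc against DG, 1 to 4 members were called when 1 library was left out. Meis2 lost its call without any of NAc METH 1, 2 and 4, DG METH 1, 2 and 4 and CA METH 2 and 4, and Rarb without any of these or of DG METH 3 and CA METH 3. Zfp503 lost its call in NAc against CA without NAc METH 1, 2 or 4, DG METH 1 or 2, any CA METH library or SVZ METH 4, and in SVZ against DG without DG METH 2 or 4 or SVZ METH 3 or 4.

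Whether METH changes expression in a region was the main question of the study, and the fits used here called no member in any region. The study itself, whose methods also remove factors estimated from the residuals, reported Dach1 as changed in all 4 regions. It reported Rarb and Meis2 as changed in several. In the NAc, 9 of 10 members had lower means after METH, with log2 fold changes from -1.31 (Dach1, SE 0.66, FDR 0.999) and -1.0 (Ebf1, SE 0.45) to 0.06 (Zfp503, SE 0.22), a median of -0.34 beside 0.03 over all genes. No member passed and 0% of the 14771 genes did, and 0 members reached an unadjusted p under 0.05 (beside 2.42% of all genes higher and 0.968% lower), with 0 called by DESeq2. In all 10 the METH and saline libraries overlapped, as they did for all genes but 1.56% higher and 0.731% lower. The lower means changed with NAc METH 3 and with NAc Sal 1. Without NAc METH 3, 5 members were higher and 5 lower, Meis2 was at 0.02 (SE 0.27), Bcl11b at -0.02 (SE 0.37) and Rarb at -0.03 (SE 0.42), while Dach1 had -1.15 (SE 0.72) and Ebf1 -0.93 (SE 0.50), both with an FDR of 0.944. NAc METH 3 was set apart by its low effector sum. Within the NAc that sum had an r of 0.97 with Meis2 and Rarb and 0.99 with Foxp1 and Bcl11b. Higher METH means without this library were therefore likely from the start and are no independent result. Without NAc Sal 1, which had the highest Dach1 (107 CPM) and effector sum (16218 CPM) of the NAc, 4 members were higher and 6 lower, Dach1 was at -0.38 (SE 0.45), Ebf1 at -0.63 (SE 0.42) and Rarb at -0.08 (SE 0.72).

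By the tags in the headers, NAc Sal 1 and 2 belong to 1 run, Sal 3 and 4 with METH 1 and 2 to another, and METH 3 and 4 to another again. With the run as a covariate, which leaves the comparison to the run that holds both groups, 7 members were higher and 3 lower. Other settings went the other way. With the RNA integrity number as a covariate all 10 were lower, with a median of -1.27 and 4 at an unadjusted p under 0.05, beside 4.96% of all genes. With 1 and 2 factors estimated from the residuals (RUVr, a step of the study's methods), 4 and 5 members were lower at that p, beside 4.25% and 6%, and none of these settings gave a call. The astrocyte markers came to 4714 CPM in NAc METH 3 and to 2498 to 3529 CPM in the other 7 NAc libraries, and Slc17a6, a glutamate transporter gene of thalamic neurons, was at 153 CPM against 0.54 to 35.3 CPM. Their part in the lower means was not tested.

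In the SVZ all 10 members had lower means after METH, with log2 fold changes between -0.11 (Six3, SE 0.40) and -1.18 (Rarb, SE 0.63), a median of -0.90 beside 0.016 over all genes. None was called, beside 0% of 15579 genes, 0 reached an unadjusted p under 0.05 (beside 1.19% of all genes higher and 1.39% lower), DESeq2 called 0, and the lowest FDR was 0.979. Rarb was at 14, 73.3, 75.4 and 64.5 CPM in SVZ Sal and at 36.7, 9.74, 39.6 and 12.7 CPM in SVZ METH, so the groups overlapped through Sal 1. Foxp2 was at 31.0, 133, 87.9 and 90.7 CPM in SVZ Sal and at 63.9, 30.7, 48.5 and 29.3 CPM in SVZ METH, a log2 fold change of -0.98 (SE 0.44, unadjusted p 0.0573, FDR 0.979).

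Leaving out the 3 SVZ libraries with high thalamic and septal markers left 3 saline and 2 METH libraries. Of the METH ones, SVZ METH 3 had 7975 CPM of choroid plexus markers and SVZ METH 1 had 7.57 CPM. All 10 members were again lower in METH, by log2 fold changes of -0.36 (Six3, SE 0.30) to -1.01 (Zfp503, SE 0.40). At an unadjusted p under 0.05, 7 were lower, beside 3.72% of all genes, and for 7 the 2 METH libraries lay below the 3 saline ones, beside 10.5%. Rarb had the smallest error (-0.87, SE 0.13, FDR 0.610). None was called, beside 0%. The summed effector genes were also lower in these 2 METH libraries (3339 and 5486 CPM) than in the 3 saline ones (6722 to 11517 CPM). With their summed log2 level as a covariate in the 8 SVZ libraries, 4 members were higher and 6 lower after METH. With 2 RUVr factors Rarb had a log2 fold change of -1.15 (SE 0.07, FDR 0.0106), just short of a call, and 5 members were lower at an unadjusted p under 0.05, beside 9.52% of all genes. Some SVZ libraries carry the mark EXTRA in their file headers, and with it as a covariate all 10 members were lower, 4 at an unadjusted p under 0.05, beside 2.97%.

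In the DG 8 members passed the filter on low counts, and Isl1 and Six3 did not. Of the 8, 7 had lower means after METH and Bcl11b a higher one (log2 fold change 0.55, SE 0.52). No member was called, beside 0% of 14800 genes. Foxp1 (-0.68, SE 0.24, FDR 0.303) and Zfp503 (-1.10, SE 0.44, FDR 0.356) reached an unadjusted p under 0.05, 2 of 8 beside 6.42% of all genes, and DESeq2 called 0. Foxp1 was at 78.2, 120, 119 and 55.6 CPM in DG Sal and at 46.5, 66.4, 60.3 and 56.7 CPM in DG METH, with an overlap through Sal 4. Without DG Sal 3, Rarb went from -1.21 (SE 0.69) to 0.08 (SE 0.26) and Dach1 from -1.63 (SE 0.95) to 0.14 (SE 0.58), and no member had an unadjusted p under 0.05, beside 6.75% of all genes higher and 7.12% lower. DG Sal 3 shared its run tag with METH 1 and 2, while Sal 1, 2 and 4 shared another and METH 3 and 4 another again. With the run as a covariate, which sets Sal 3 against METH 1 and 2, 7 of 8 members were lower, 6 at an unadjusted p under 0.05, beside 5.41% of all genes, among them Rarb (-2.91, SE 0.36, FDR 0.0833) and Meis2 (-3.00, SE 0.65, FDR 0.193).

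Markers of hippocampal neurons also varied among the DG libraries, with overlap between the treatments and 0 of these genes at an FDR under 0.05. The dentate granule markers came to 86.9 to 320 CPM in DG Sal and to 124 to 609 CPM in DG METH, and the pallial factors to 103 to 1151 and 735 to 1500 CPM. Bcl11b, which hippocampal neurons make too, was at 228, 70.7, 239 and 89.4 CPM in DG Sal and at 205, 346, 81.1 and 280 CPM in DG METH. Of these, DG Sal 2, DG Sal 4 and DG METH 3 had the lowest Bcl11b and the lowest granule markers but for DG Sal 3. Their part in the METH comparison was not tested. Without the 4 DG libraries whose number belongs to the other treatment elsewhere, 10 members were tested, 9 were lower and 0 were called.

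In CA, 8 members were tested and all 8 had higher means after METH, by 0.01 (Bcl11b, SE 0.23) to 1.19 on the log2 scale (Dach1, SE 0.52, unadjusted p 0.0485, FDR 0.694), a median of 0.36 beside 0.005 over all genes. None was called, beside 0% of 14612 genes, and Dach1 was the 1 member with an unadjusted p under 0.05, beside 4.37% of all genes (DESeq2: 0 called). Without CA METH 2, which had 9.36 CPM of Dach1, its log2 fold change was 0.56 (SE 0.41, FDR 0.842). Meis2 was at 33.0, 75.2, 41.9 and 51.0 CPM in CA Sal and at 76.0, 67.9, 89.3 and 57.0 CPM in CA METH (0.54, SE 0.24, FDR 0.705). The overlap came from CA Sal 2, which had 2191 CPM of choroid plexus markers against 4.37 to 18.8 CPM in the other CA Sal libraries. With the run as a covariate 5 of the 8 were higher and 3 lower.

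**Figure D3:**
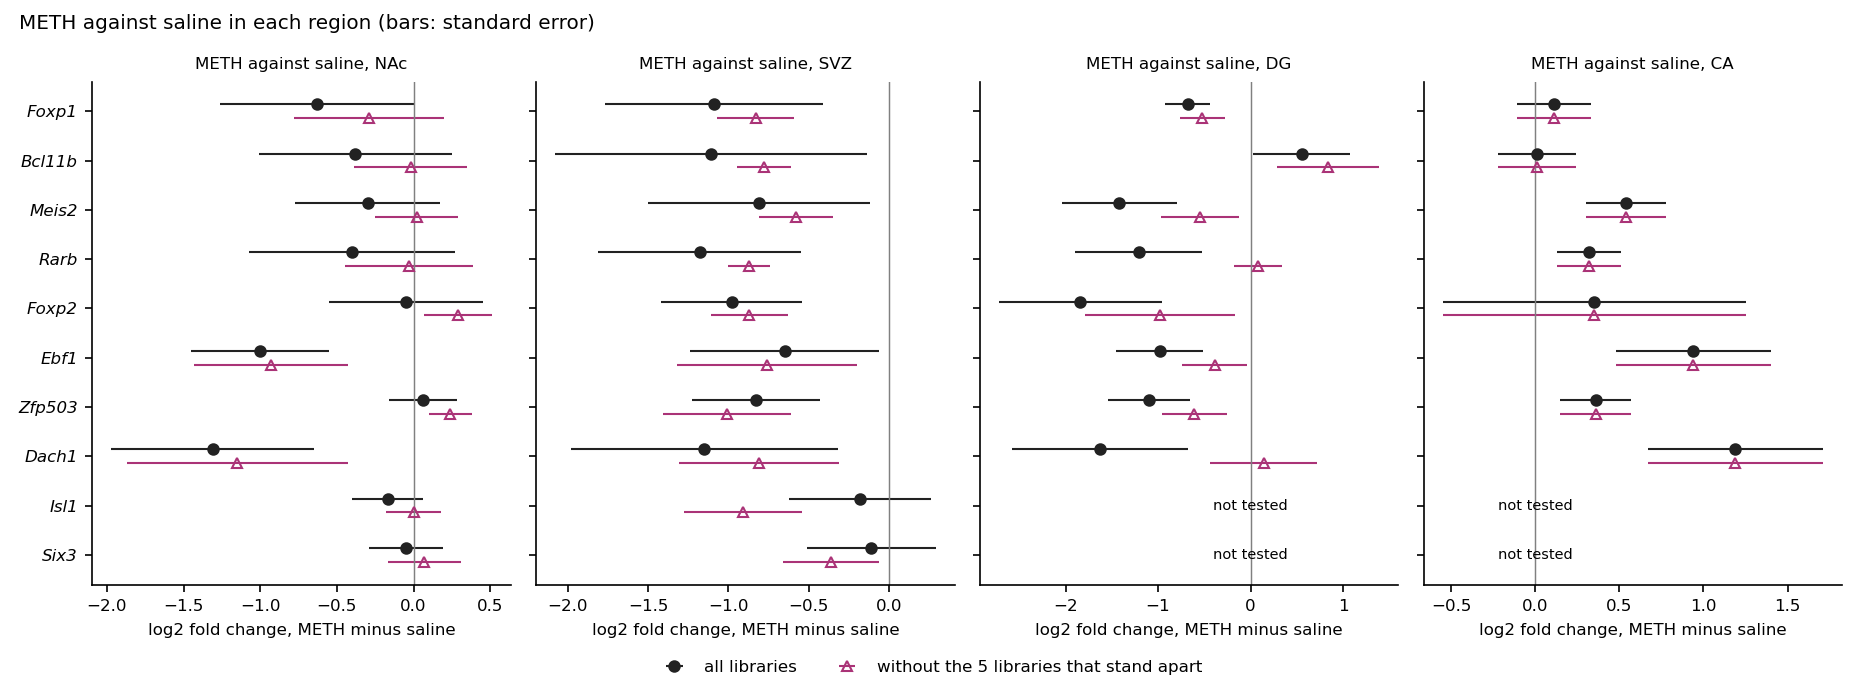
Log2 fold change (METH minus saline, points, with standard error bars) of each member in each region, with all libraries (circles) and without the 5 that stand apart (triangles). The SVZ is the region where all 10 members are on the lower side in both fits, while Isl1 and Six3 are missing from DG and CA because they did not pass the filter on low counts.

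Over the 4 regions together, the mean METH effect was lower for 9 of 10 members, with Foxp1 (-0.58, SE 0.27, FDR 0.625) and Zfp503 (-0.38, SE 0.18, FDR 0.624) at an unadjusted p under 0.05, beside 3.54% of all genes. No member was called, beside 0% of 16122 genes, nor by DESeq2. The fits across regions treated all libraries as independent. Library numbers recur in the NAc, DG and CA, so libraries of the same number may come from the same rat. The errors and p-values of these fits do not take this into account. Without the 5 libraries 7 members were lower and 3 higher, with 0 lower at an unadjusted p under 0.05, beside 3.27% of all genes, and 1 higher, beside 3.8%. The METH effect was also compared between regions, and 0 members differed at an FDR under 0.01 in the 6 pairs of regions, by edgeR or by DESeq2. The share of all genes that did was 0.0124% for DG minus CA and 0% for the 5 other pairs. DG minus CA had the most members at an unadjusted p under 0.05, 5 of 10 lower (Zfp503, Ebf1, Meis2, Dach1 and Isl1) beside 7.02% of all genes. Zfp503 had an effect lower by 1.47 on the log2 scale in the DG (SE 0.52, FDR 0.209). Without the 5 libraries, 2 of 10 were left (Zfp503 and Meis2), beside 8.27%. The dentate granule markers had a median log2 fold change after METH of 1.51 in the DG and of -0.9 in CA. Their part in DG minus CA was not tested. In NAc minus CA, Ebf1 and Dach1 were lower at an unadjusted p under 0.05, beside 0.527% of all genes. Zfp503 was lower in SVZ minus CA, beside 2.28%, and higher in NAc minus DG, beside 5.55%. No member reached it in NAc minus SVZ (1.03% of all genes higher and 0.515% lower) or in SVZ minus DG (4.91% and 5.09%). Without the 5 libraries, SVZ minus CA had 4 members lower at that p (Zfp503 with -1.38, SE 0.45, FDR 0.966, Rarb, Ebf1 and Meis2), beside 2.74%. Zfp503 was then higher in NAc minus SVZ, beside 2.33%, Isl1 and Bcl11b lower in SVZ minus DG, beside 6.08%, and Isl1 lower in NAc minus DG, beside 6.77%. Ebf1 and Dach1 were again the 2 lower in NAc minus CA, beside 1.88%. The values of Isl1 against the DG and CA rest on reads in 1 library of a group.

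Other genes of the same programme were read from lists. The effector list holds genes that mark medium spiny neurons, such as the receptors Drd1, Drd2 and Adora2a, the peptides Penk, Pdyn and Tac1 and the phosphodiesterase Pde10a. All 16 were higher in saline NAc than in CA, 11 at an FDR under 0.05, with a median log2 difference of 3.92 beside 0.057 over all genes. Drd2 (5.40, SE 1.29, FDR 0.0342) and Adora2a (5.33, SE 1.5, FDR 0.0538) had the largest differences. After METH, 15 of 16 were lower in the NAc, 16 of 16 in the SVZ and DG and 5 of 16 in CA, with 0 called. These directions moved with single libraries. The summed level was 771 CPM in NAc METH 3 and 6341 to 7456 CPM in the other NAc METH libraries, beside 3497 to 16218 CPM in NAc Sal. In the DG it was 4116 CPM in Sal 3 and 600 to 879 CPM in the other DG Sal libraries, beside 659 to 982 CPM in DG METH. In the NAc, Gpr6 (-1.01, SE 0.87, FDR 0.999) and Adora2a (-0.82, SE 0.92) were lowest and Pdyn highest (0.80, SE 0.47). In the SVZ Rgs9 (-1.61, SE 1.14) and Gpr6 (-1.54, SE 1.06) were lowest, both with an FDR of 0.979.

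Further factors of the ganglionic eminence and striatum were mixed. Of 14 tested in saline NAc against CA, 4 were higher at an FDR under 0.05, with Pbx3, a DNA-binding partner of Meis proteins (2.74, SE 0.53, FDR 0.0298), and Dlx5, a homeobox factor of GABAergic neurons (2.7, SE 0.74, FDR 0.0496), at the top. The nuclear receptor Nr2f2 had -2.10 (SE 0.99, FDR 0.209). Sp8, a factor of neuroblasts, had a log2 difference of -3.28 (SE 0.83, FDR 0.131) in NAc against SVZ and of 3.95 (SE 0.87, FDR 0.0145) in SVZ against CA. After METH 0 of this list were called in any region.

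The paralogs did not follow the members as a group. In saline NAc against CA the median of the 11 tested was -0.32, with 2 higher and 1 lower at an FDR under 0.05. Meis1, the closest relative of Meis2, was higher (2.40, SE 0.41, FDR 0.0285), while Rara, the receptor related to Rarb, was lower (-0.97, SE 0.21, FDR 0.0303). Ebf3 had 3.13 (SE 1.33, FDR 0.165) and Ebf2 -0.94 (SE 1.06, FDR 0.622). Foxp4 was lower in SVZ than in CA (-0.65, SE 0.17, FDR 0.0275), and Bcl11a had -1.19 there (SE 0.41, FDR 0.0686). Reads shared between close paralogs could not be told apart in the counts.

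The pallial factors ran the other way. All 12 were lower in saline NAc than in CA (median log2 difference -2.76), 2 at an FDR under 0.05, with Neurod6 (-4.78, SE 1.39, FDR 0.0599) and Bhlhe22 (-3.91, SE 1.08, FDR 0.0506) lowest. In saline SVZ against CA all 12 were lower too, 5 at an FDR under 0.05, with Bhlhe22 (-4.78, SE 1.13, FDR 0.0178) and Neurod1 (-4.54, SE 1.21, FDR 0.0276) lowest. After METH 0 were called in any region. Of the other lists, the interneuron markers had a median log2 difference of 0.69 between saline NAc and CA, the cholinergic markers of 5.13, the CA pyramidal markers of -1.02 and the dentate granule markers of -2.10.

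How the members moved with each other was described over the 32 libraries, which share dissection and depth. Pearson's r of log2(CPM + 1) between 2 members ran from -0.039 to 0.979 over the 45 pairs, with a median of 0.761, and Isl1 with Six3 was the closest pair. With the summed effector genes, r was 0.98 for Rarb, 0.93 for Meis2 and 0.60 for Bcl11b. Taken as deviations from the group means, it was 0.95 for Rarb, 0.90 for Meis2, 0.88 for Foxp1 and 0.84 for Bcl11b, and 0.32 for both Isl1 and Six3. Within the 8 NAc libraries r was 0.65 for Isl1 and 0.80 for Six3, and within the 8 SVZ libraries -0.42 and -0.61, where Foxp1, Bcl11b and Rarb each had 0.97.

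Within the 16 NAc and SVZ libraries Foxp1 and Rarb kept the most even ratios to the effector genes, with the highest library 1.94 and 2.09 times the lowest. In the hippocampal libraries Foxp1 ran from 29.0 (DG Sal 3) to 138 CPM (CA METH 1) per 1000 effector CPM, so its ratio was not even over all regions. Over the 16 NAc and SVZ libraries the summed effector level ran from 771 to 16218 CPM, while Rarb stayed between 6.55 (SVZ Sal 3) and 13.7 CPM (NAc Sal 4) per 1000 effector CPM. Isl1 ran from 0.841 CPM (NAc Sal 1) to 30.0 CPM (SVZ METH 2) on the same measure. The 3 SVZ libraries with high thalamic and septal markers had 26.7, 30.0 and 16.6 CPM of Isl1 per 1000 effector CPM, above the 10.8 CPM of NAc METH 3 and all others.

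**Figure D4:**
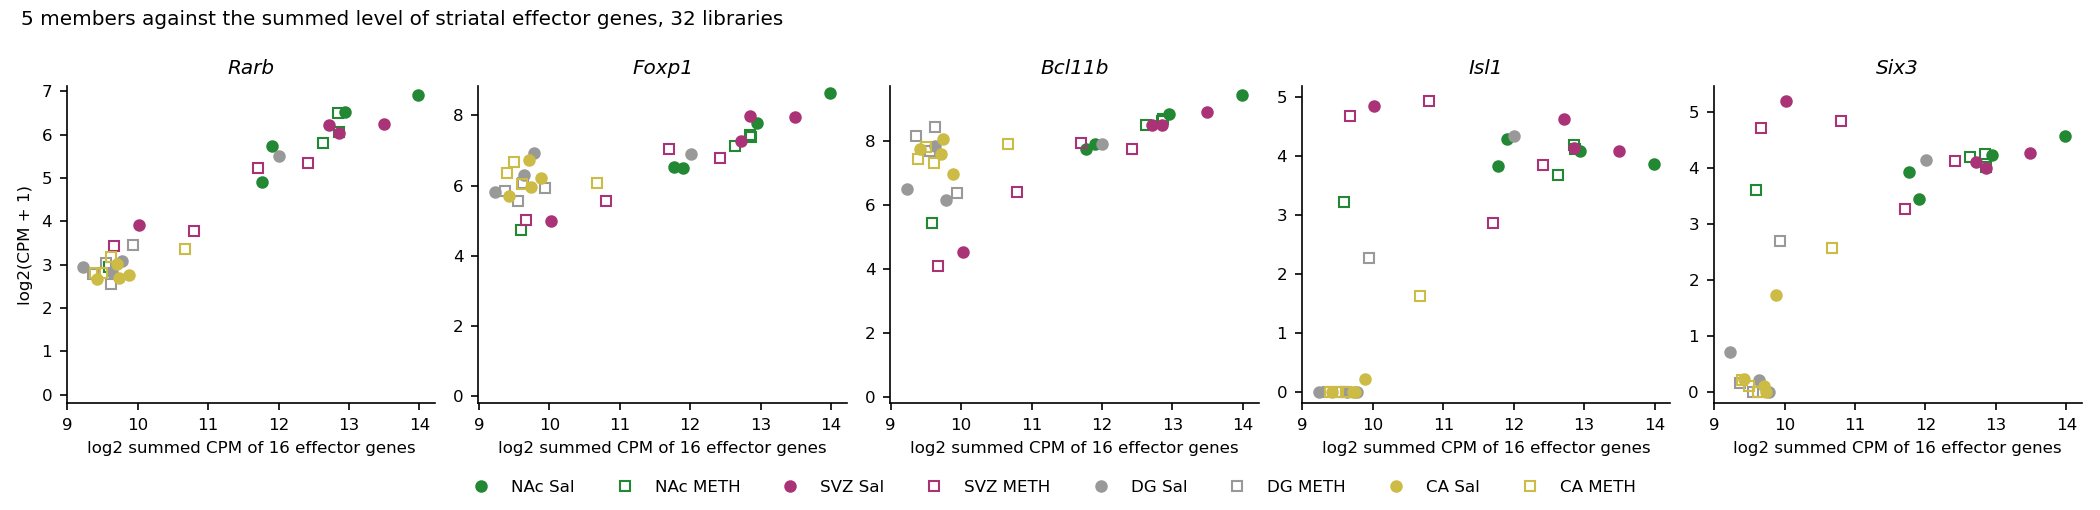
Log2(CPM + 1) of 5 members against the log2 of the summed CPM of 16 striatal effector genes, 1 point per library, with saline libraries filled and METH libraries open. Rarb, Foxp1 and Bcl11b rise with the effector genes over the NAc and SVZ libraries, while 3 SVZ libraries have high Isl1 and Six3 at a low effector level.

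The genes whose level was most like each member were sought among 14450 genes with a mean of at least 1 CPM, as a description. For Meis2 these were Tac1 (Pearson's r 0.955), Gpr52 (0.952) and Drd2 (0.948), and for Rarb Ankk1 (0.980), the adenylyl cyclase Adcy5 (0.976) and the orphan receptor Gpr6 (0.974). For Foxp1 they were the unnamed gene AABR07027306.1 (0.964), Arpp21 (0.953) and Ppp1r9a (0.935). Bcl11b was most like Rab40b (0.961), Ano3 (0.951) and Sh2d5 (0.947). For Foxp2 the nearest were Sorcs1 (0.924) and Galnt13 (0.917), and for Zfp503 Sesn3 (0.932), Galnt13 (0.924) and Pdxk (0.918).

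The other 4 members were most like one another or like genes outside the effector list. Isl1 was most like Six3 (0.979), then Nexn (0.944) and Prkch (0.943), and Six3 was most like Isl1, then Prkch (0.939) and Patj (0.938). Ebf1 was most like Dach1 (0.910), Iqgap3 (0.910) and Dmkn (0.908). Dach1 was most like Klhl13 (0.946), Cacng4 (0.938) and Prkd1 (0.933).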

How the data were processed

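The libraries were of total RNA depleted of ribosomal RNA. The authors trimmed the reads with cutadapt 2.7, mapped them to rn6 with STAR 2.5.2b and deposited raw counts per gene from featureCounts 1.6.3, without strand and without normalization. The headers name an Ensembl annotation and the methods a UCSC one. A count matrix of 14713 genes was used as an alternative.

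The tests ran in R 4.3.3 on edgeR 4.0.16 (upper-quartile normalization, filterByExpr, quasi-likelihood test), limma 3.58.1 and DESeq2 1.42.0, and tabulated in Python 3.11.15 with pandas 2.3.3, numpy 2.4.6 and matplotlib 3.10.9. The FDR (Benjamini-Hochberg) was taken over all genes tested. A call needed FDR below 0.01 together with a fold of over 1.5 for METH or over 2 between regions. METH was tested within the 8 samples of a region, regions within the 16 samples of a treatment and the mean effect and its differences in all 32. The methods also remove RUVr factors of an unstated number, so 1 and 2 factors were alternatives.

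Named were the 10 members, the 3 genes most like each and, from 4 lists, the 2 highest and 2 lowest log2 fold changes, except for 2 genes that are not reported here. Gene lists and members were chosen with earlier results of these data known. Replicate numbers were checked for pairing. Deviations from the group means correlated above 0.1 in every pair only between NAc Sal and CA Sal (0.117 to 0.245), where the library numbers also match. The library numbers match between NAc METH and CA METH too, where the correlations ran from -0.104 to 0.234. The fits were also run on simulated counts with known changes and the same dispersion for all genes. That run does not show which changes could be found at the spread of these libraries.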

Additional observations from a re-analysis of the deposited data

Results flagged for a closer look

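Dixon's test was applied to 80 sets of 4 libraries (10 members in 8 groups). In 14 sets, 1 library lay further from the others than its critical value allows. Chance gives about 1 in 20 for independent sets, but these sets are not independent. The members moved together, and the same library was flagged for several members. For Isl1 and Six3 in the hippocampus, the others of a set held few or no reads, so a library with some reads is easily flagged. The count of 14 can therefore not be set against chance. Levels are in CPM.

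DG Sal 3 was such a library for 5 members. It had 44.8 of Rarb (others 6.11 to 7.43), 77.4 of Foxp2 (others 18.0 to 19.2), 24.5 of Dach1 (others 1.36 to 4.02), 16.7 of Six3 (others 0 to 0.644) and 19.1 of Isl1 (others 0). These are levels of the kind seen in the NAc and in the SVZ. The thalamic and septal markers of DG Sal 3 came to 283, beside 81.2 to 172 in NAc Sal and 120 to 1963 in SVZ Sal. Hippocampal replicates labelled METH 3 held Isl1 and Six3, 3.82 and 5.52 in the DG and 2.08 and 4.94 in CA, where the others had 0 of Isl1 and at most 0.16 of Six3. CA METH 3 also had 7.87 of Ebf1 (others 2.24 to 2.66), and CA Sal 2 had 2.34 of Six3 (others 0 to 0.174).

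Among the NAc and SVZ libraries, NAc METH 3 had 41.8 of Bcl11b (others 356 to 410). SVZ Sal 1 had 33.8 of Meis2 (others 253 to 267) and 35.9 of Six3 (others 15.1 to 18.2), so it was low in the first and high in the second.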

How the results depend on the processing

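Of 2800 values of 112 member results under other settings, 2629 kept their direction and their side of the threshold, 71 passed it in addition, 38 no longer passed and 62 changed sign, 30 of these on leaving out 1 library. No setting gave a called member for METH in a region. The cause of each change below was not tested. Leaving out the 5 libraries that stand apart and the covariates run and effector level were chosen after seeing the data.

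Counts of members called changed as follows, with the share of all genes called under the same setting in brackets. Saline CA against the others went from 0 to 1 at an FDR under 0.05 with no fold limit (2%) and to 7 by DESeq2 (1.72%), with 0 to 1 on leaving out 1 library. Without the 5 libraries, saline NAc against DG went from 0 to 4 (1.28%) and SVZ against DG from 0 to 6 (2.5%), each with 0 to 1 on leaving out 1. Saline NAc against CA went from 0 to 7 at the FDR of 0.05 (5.1%), 7 by DESeq2 (3.43%) and 8 without the 5 (3.01%), with 0 to 4 on leaving out 1, the 4 without DG Sal 3. Saline SVZ against CA went to 8 (13.2%), 8 (4.97%) and 8 (4.54%) in the same order, with 0 to 5, the 5 without DG Sal 3. In METH rats, NAc against DG went from 3 to 6 (12.5%), 6 (5.43%) and 5 (5.12%), with 1 to 4. NAc against CA went from 1 to 3 (7.67%), 2 (3.32%) and 4 (3.12%), and to 0 with TMM (1.4%) or no filter (0.812%), with 0 to 2. SVZ against DG went from 1 to 7 (22.5%), 5 (6.63%) and 5 (3.49%), with 0 to 5, and SVZ against CA from 0 to 5 at the FDR of 0.05 (25.7%) and 1 without the 5 (2.2%), with 0 to 2. NAc METH 3, 1 of the 5, was set apart by its low effector sum, so more NAc calls without it were likely from the start.

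With the replicate number as a block, 107 results kept their call and direction, 4 calls were lost and 1 sign changed. In fits that hold both treatments this block joins METH and saline libraries of the same replicate number, so it does not stand for an animal. NAc against DG in METH rats went to 1 call (2.5% of all genes) and NAc against CA to 0 (0.845%). The numbers pair the samples in the correlations of NAc Sal with CA Sal alone, where the block also gave 0.

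Apart from leaving out 1 library, the 32 log2 values that changed sign among these results were the following. In the NAc METH effect without the 5 libraries, Meis2 had 0.02, Foxp2 0.29, Isl1 0.0003 and Six3 0.07. With the run, Meis2 had 0.22, Rarb 0.02, Foxp1 0.03, Foxp2 0.27, Bcl11b 0.14 and Six3 0.36. With the effector level, Foxp2 had 0.15, Bcl11b 0.01 and Six3 0.14, and with RNA integrity (RIN) Zfp503 had -0.24. In the DG without the 5, Rarb had 0.08 and Dach1 0.14. In CA, Foxp1 had -0.06 with the run, Foxp2 -0.08 with the block and -0.01 with the run, and Bcl11b -0.003 with TMM, -0.004 by DESeq2, -0.18 with the run and -0.03 with the effector level. In the SVZ with the effector level, Meis2 had 0.31, Bcl11b 0.51, Ebf1 0.13 and Dach1 0.07. In saline DG against CA without the 5, Isl1 had -2.33 and Six3 -1.11. In the difference of the METH effect without the 5, Isl1 had -7.03 in NAc minus DG, -7.94 in SVZ minus DG and 3.27 in DG minus CA.

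Leaving out 1 library at a time, the METH effect ran in the NAc from -0.53 to 0.02 for Meis2, -0.26 to 0.29 for Foxp2, -0.32 to 0.0003 for Isl1, -0.59 to 0.004 for Bcl11b, -0.22 to 0.14 for Six3 and -0.08 to 0.24 for Zfp503. It ran in the DG from -1.49 to 0.08 for Rarb and -2.08 to 0.14 for Dach1, in CA from -0.03 to 0.33 for Foxp1, -0.73 to 0.97 for Foxp2 and -0.16 to 0.18 for Bcl11b, and in the SVZ from -0.51 to 0.10 for Isl1 and -0.33 to 0.25 for Six3. Saline DG against CA ran from -2.37 to 9.26 for Isl1 and -1.12 to 5.59 for Six3. The difference of the METH effect of Isl1 ran from -7.24 to 9.07 in NAc minus DG and in SVZ minus DG, and from -13.01 to 3.31 in DG minus CA.

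With 4 libraries a group and 0 to 3 reads of Isl1 and Six3 in most hippocampal libraries, changes of these genes there were not measurable at this depth.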
